A study of Mus musculus with 32 samples.

Results

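The genes described here are 10 genes of the neuronal cytoskeleton and of neuronal identity in mouse spinal cord: the neurofilament subunits Nefl, Nefm, Nefh and Ina, the microtubule genes Tubb3, Map2, Mapt and Stmn2, and the neuronal markers Rbfox3 and Uchl1. They were taken by symbol from a table of read counts that holds 23420 genes, and all 10 were present and passed the filter on low counts, which kept 16314 genes. The counts come from bulk RNA-seq of 32 libraries, all from C57BL/6J mice aged 8 to 12 weeks. The tissue was spinal cord taken around the lesion, collected 3, 14 or 35 days after injury (SCI, spinal cord injury).

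The libraries form 10 groups. Sham animals were sampled on days 3 and 35, with 3 libraries each. Injured animals with the control treatment (SCI+Ctrl, called injured control below) gave 3 libraries on day 3, 3 on day 14 and 4 on day 35. Injured animals given Gsx1 (SCI+Gsx1) gave 3, 3 and 4 libraries on the same days, and those given Nkx6.1 (SCI+Nkx6.1) gave 3 on day 3 and 3 on day 35. Gsx1 and Nkx6.1 are homeodomain transcription factors of the developing spinal cord. The sham labels name no control treatment, so injury and the control treatment cannot be told apart in injured control against sham. The labels name neither the route of delivery nor the sex of the mice, and nothing in them says that libraries came from separate animals. The p-values therefore reflect the spread between libraries, which may be technical.

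Neurofilaments are the intermediate filaments of neurons, and they are most abundant in large myelinated axons, where they set axon calibre. Light (Nefl), medium (Nefm) and heavy (Nefh) chains assemble together with alpha-internexin (Ina), while microtubules built from tubulins run beside them and are bound by the proteins encoded by Map2 and Mapt. The mRNAs are made in the neuronal cell body, so cord tissue holds those of spinal neurons, while axons that descend from the brain have their cell bodies elsewhere.

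Total counts ranged from 10.8 to 19.5 M per library (median 14.6 M), and the members had 776 to 47019 counts in a library. The SD between libraries ran from 0.576% of the mean (Nefh in sham on day 35) to 59.6% (Ina with Nkx6.1 on day 3). Counting error was small beside the wide spreads but not beside the narrowest ones in sham. Levels are given as CPM, counts scaled to an equal effective library size with TMM, and a gene was called at an adjusted p under 0.05 in edgeR's quasi-likelihood test over all 16314 genes. Defining markers of spinal neurons were present in all groups, and their summed level (11 genes) was 1283 to 1381 CPM in sham and 536 to 665 CPM in injured control on day 3. Macrophage and microglia markers (14 genes) moved the other way, from 329 to 387 CPM in sham to 2389 to 3719.6 CPM in injured control on day 3, and to 4463 to 7763 CPM with Nkx6.1. Fewer neurons in the tissue, less RNA per neuron and a larger share of RNA from other cells cannot be told apart in bulk samples. Of the sensory ganglion markers (12 genes), the summed level was 43.0 to 222 CPM over all libraries and Mrgprd was at 0 in all 10 groups. Skeletal muscle markers (11 genes) reached 413 CPM in 1 injured control library and 723 CPM in 1 Nkx6.1 library of day 3.

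Several libraries stood apart. In 4 libraries of day 35, genes with long transcripts were low for their mean level: injured control replicates 1 and 4, Gsx1 replicate 3 and Nkx6.1 replicate 3, with a Spearman's rho of gene deviation against transcript length of -0.48, -0.35, -0.40 and -0.37 over 14508 genes. The limit of -0.3 behind this count was set after the values were seen. The trend also differed between groups of day 3, with a rho of 0.22 to 0.28 in sham and -0.08 to 0.09 in injured control. Its part in the differences of day 3 was not tested. Sham replicate 1 of day 3 and injured control replicate 4 of day 35 held both Xist and Ddx3y, transcripts of female and male cells. Xist was over 100 CPM in 7 libraries. On day 3 these were replicates 1 and 2 of sham and replicate 1 of injured control. On day 35 they were replicates 1 and 4 of injured control, replicate 3 of sham and replicate 2 of Nkx6.1, and no Gsx1 library was among them. Results without sets of these libraries are given for injured control against sham and for Gsx1 against injured control on day 35. For other comparisons they are given only in part.

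In GENCODE's annotation of GRCm38, the genes lie on 7 chromosomes. Nefl (chromosome 14, 68083863 to 68089095, plus strand) and Nefm (chromosome 14, 68082590 to 68124846, minus strand) overlap on opposite strands and share 1108 exonic bases. Use of strand in the counting is not given in the sources used here, and the split of reads between Nefl and Nefm is therefore uncertain. Ina (chromosome 19, 47014698 to 47025327) likewise shares 456 exonic bases with Nt5c2 on the other strand. Nefh lies on chromosome 11 (4938754 to 4948064), as do Mapt (104231390 to 104332090) and Rbfox3 (118489762 to 118911597). Tubb3 lies on chromosome 8 (123411424 to 123422015), Map2 on chromosome 1 (66175273 to 66442583), Stmn2 on chromosome 3 (8509360 to 8561606) and Uchl1 on chromosome 5 (66676091 to 66687234).

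Promoter sequences from RefSeq (build GRCm38.p6) matched 5 of the 10 members: Ina, Tubb3, Map2, Rbfox3 and Uchl1. Of the 10 members, 7 were called lower on day 3, Ina and Rbfox3 among them. The 60 bases before the start site used are shown for Ina and Rbfox3, whose stretches touch no annotated exon. For Rbfox3 this start lies inside the annotated gene, which begins at 118911597 on the minus strand, so its other starts are not covered. The stretches are printed 5′ to 3′ on the gene's strand, with matches to GGGCGG (a GC box, on either strand) or TATAA in capitals.
Ina, chr19:47014621-47014680, plus strand: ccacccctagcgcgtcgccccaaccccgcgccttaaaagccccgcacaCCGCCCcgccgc
Rbfox3, chr11:118761042-118761101, minus strand: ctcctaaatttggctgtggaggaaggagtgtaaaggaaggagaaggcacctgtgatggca
Over the full window of 300 bases (250 before the start used and 50 after), GC content was 71.7% for Ina, 77.7% for Map2 and 67.3% for Tubb3. It was 53.0% for Rbfox3, at its start inside the gene, and 50.7% for Uchl1. GGGCGG was found on either strand in 3 of the 5 (Ina, Map2 and Tubb3), and in 35.7% of all 32851 promoters. TATAA was found in Tubb3 alone of the 5 and in 24.9% of all promoters. Of 2 pieces of the element bound by the neuronal repressor REST, CAGCACC was found in Tubb3 alone (7.14% of all promoters) and GGACAG in Ina, Map2 and Tubb3 (22.2% of all promoters), on either strand.

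Per kilobase of the longest coding transcript, Nefm was the most abundant member in sham cord on day 3 at 779 ± 52.0 CPM per kb (SD, n = 3). Nefl followed at 712 ± 40.2, Uchl1 at 521 ± 37.4, Nefh at 451 ± 26.1 and Tubb3 at 271 ± 26.4 CPM per kb. Stmn2 stood at 202 ± 8.28, Map2 at 133 ± 7.37, Mapt at 108 ± 1.90, Ina at 101 ± 1.94 and Rbfox3 at 58.4 ± 1.31 CPM per kb. The 10 genes together took 1.02% ± 0.0486 (SD, n = 3) of all counts in sham cord on day 3. In injured control they took 0.592% ± 0.0951 on day 3 and 0.749% ± 0.196 (n = 4) on day 35.

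**Figure D1:**
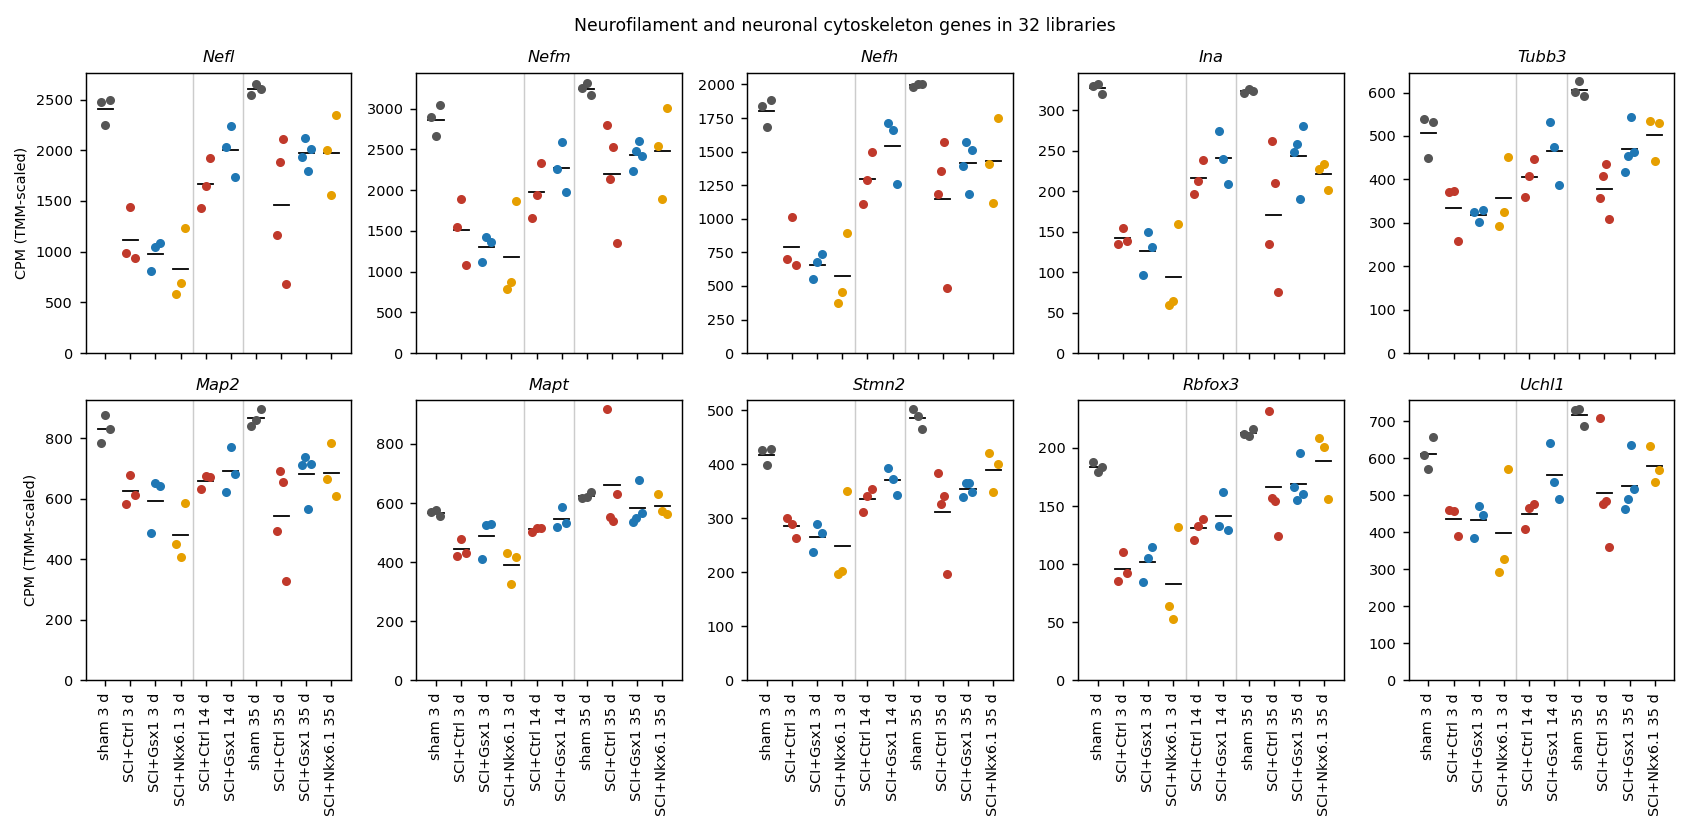
Level of each of the 10 genes (CPM, linear axis from 0) in all 32 libraries, 1 point per library, coloured by treatment, with a bar at the mean of each group of 3 or 4. The neurofilament genes have their lowest means in the injured groups of day 3 (Nefl 583 to 1439.5 CPM over these libraries, 2249.8 to 2656 CPM over sham), and Mapt of injured control on day 35 holds 1 library at 918 CPM.

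On day 3 after injury the neurofilament genes were at 43.7% (Ina) to 52.5% (Nefm) of sham, with Rbfox3 beside them at 52.2% and the other 5 members at 65.9% (Tubb3) to 78.2% (Mapt). Nefl, the core subunit that every neurofilament needs, measured 2477, 2249.8 and 2492 CPM in the sham libraries and 987, 1439.5 and 934 CPM in injured control. All 3 injured libraries lay below all 3 sham libraries, and the log2 fold change was -1.10 ± 0.28 (SE; edgeR adjusted p = 0.00398). Nefh, whose long phosphorylated tail projects from the filament, measured 1839, 1685 and 1883 CPM in sham and 704, 1012 and 657 CPM in injured control. It fell by 1.19 on the log2 scale (SE 0.30, adjusted p = 0.00347 in edgeR), with no overlap of the libraries.

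Nefm, the medium subunit, measured 2897, 2661 and 3040.4 CPM in sham on day 3 and 1553, 1887 and 1078 CPM in injured control. Again the groups did not overlap, and the log2 fold change was -0.93 ± 0.26 (edgeR adjusted p = 0.00751). Ina, the subunit prominent in smaller and younger neurons, held a narrow range in sham (329.5, 332 and 319.8 CPM) and in injured control (135, 154 and 139 CPM). Its log2 fold change was -1.19 ± 0.31 (edgeR adjusted p = 0.00429).

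Tubb3, the beta-tubulin used as a neuronal marker, measured 538, 449.7 and 531 CPM in sham and 371, 373 and 258 CPM in injured control. It fell by 0.60 on the log2 scale (SE 0.16, edgeR adjusted p = 0.00539). Stmn2, which encodes a tubulin-binding protein of growing and regenerating axons, measured 427, 398 and 428 CPM in sham and 301, 290.2 and 264 CPM in injured control. Its fall of 0.55 (log2 fold change -0.55 ± 0.18, edgeR adjusted p = 0.0182) passed the threshold as well.

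Map2, the dendritic microtubule-associated protein, measured 784, 877 and 831 CPM in sham and 583, 677 and 611 CPM in injured control on day 3. The libraries did not overlap, yet the log2 fold change of -0.41 ± 0.18 did not pass the threshold (edgeR adjusted p = 0.0815). Mapt, which encodes the axonal protein tau, measured 568, 575 and 555 CPM in sham and 420.4, 477 and 432 CPM in injured control. With no overlap here either, its log2 fold change was -0.35 ± 0.15 (edgeR adjusted p = 0.0628).

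Rbfox3 encodes the splicing factor known as NeuN, which is found in the nuclei of most mature neurons. It measured 188, 179.6 and 184 CPM in sham and 85.3, 110.4 and 92.2 CPM in injured control on day 3, at a log2 fold change of -0.94 ± 0.23 (edgeR adjusted p = 0.00265). Uchl1, an abundant neuronal deubiquitinating enzyme, measured 608, 572 and 659 CPM in sham and 461, 459 and 389.7 CPM in injured control. Its libraries did not overlap, and its log2 fold change of -0.49 ± 0.20 did not pass (edgeR adjusted p = 0.0560).

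In all, 7 of the 10 members were called lower on day 3 and none was called higher, while 16% of all genes tested were called lower and 35.5% in either direction. All 10 had an unadjusted p under 0.05, and DESeq2 called 7 lower. In 10 of 10 the injured libraries lay below the sham libraries, as they did for 27.6% of all genes. The median log2 fold change of the members was -0.76, beside 0.01 over all genes tested. Without injured control replicate 3, whose neurofilament levels were the lowest of its group for Nefl, Nefm and Nefh, 4 members were called lower (Nefl, Nefh, Ina and Rbfox3), as were 9.72% of all genes. In the 10-group fit the groups share 1 estimate of the spread, and with the sham and injured control libraries of day 3 alone all 10 members were called lower, as were 22.3% of all genes.

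**Figure D2:**
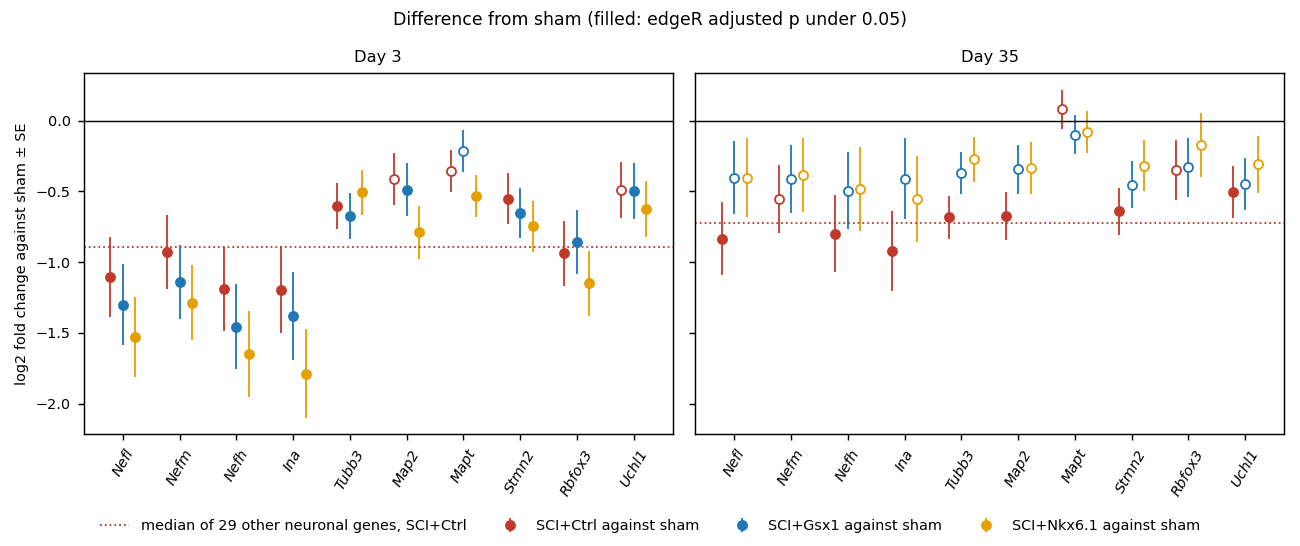
Log2 fold change against sham (± SE) of each member on day 3 and day 35 for injured control, Gsx1 and Nkx6.1, with filled points for an edgeR adjusted p under 0.05. The dotted line marks the median of 29 other neuronal genes in injured control (-0.89 on day 3, -0.72 on day 35), and Mapt on day 35 lies at 0.08 in injured control.

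On day 35 the levels in injured control were spread widely. Nefl measured 2547, 2656 and 2605 CPM in sham and 1160.2, 1885, 2111 and 686 CPM in the 4 injured control libraries. Replicate 4 was lowest and replicate 1 next, all 4 lay below sham, and the log2 fold change was -0.83 ± 0.26 (edgeR adjusted p = 0.0148). Nefh measured 1981, 2002 and 2000.2 CPM in sham and 1181, 1352, 1570.2 and 483 CPM in injured control, a log2 fold change of -0.80 ± 0.27 (edgeR adjusted p = 0.0246). Ina measured 321, 326 and 324 CPM in sham and 135, 262, 210.4 and 75.7 CPM in injured control, at -0.92 ± 0.28 (edgeR adjusted p = 0.0137). In each of these genes replicate 4 of injured control was the lowest library and no library overlapped with sham.

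Nefm departed from the other subunits in replicates 1 and 4. It measured 3248, 3309 and 3163 CPM in sham on day 35 and 2794, 2143, 2529 and 1348 CPM in injured control, so that replicate 1 was the highest library of its group for Nefm while it was the second lowest for Nefl. The log2 fold change was -0.56 ± 0.24 (edgeR adjusted p = 0.0699). As a share of the 4 subunits' summed level, Nefm took 39.1% ± 0.538 (SD, n = 3) in sham on day 35 and 37.3% to 52.7% in the 4 injured control libraries. The ratio of Nefl to Nefm was 0.42 and 0.51 in injured control replicates 1 and 4. It was 0.88 and 0.83 in replicates 2 and 3, and 0.78, 0.80 and 0.82 in sham. Replicates 1 and 4 are the injured control libraries of that day low in long transcripts and high in Xist. Gsx1 replicate 3, also low in long transcripts, stood at 0.69 against 0.83 to 0.87 in the other Gsx1 libraries. Nkx6.1 replicate 3, low in them too, stood at 0.78, beside 0.79 and 0.82 in its group. The part of these traits in the ratio was not tested.

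Among the microtubule genes on day 35, Tubb3 measured 602, 626 and 592 CPM in sham and 358, 408, 436 and 309 CPM in injured control. It fell by 0.68 on the log2 scale (SE 0.15, edgeR adjusted p = 0.00113), the smallest adjusted p of any member on that day. Map2 measured 841, 858 and 896 CPM in sham and 494, 692, 656 and 329 CPM in injured control, at -0.67 ± 0.17 (edgeR adjusted p = 0.0041). Both genes lay below sham in all 4 injured libraries. Stmn2 measured 503, 490.1 and 465 CPM in sham and 384, 327, 341 and 196 CPM in injured control, at -0.64 ± 0.17 (edgeR adjusted p = 0.00461).

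Mapt did not follow them. It measured 617, 619 and 636 CPM in sham on day 35 and 918, 553, 538 and 631 CPM in injured control, so that replicate 1 lay above all sham libraries and replicates 2 and 3 below them. The log2 fold change was 0.08 ± 0.14 (95% interval -0.20 to 0.36, edgeR adjusted p = 0.671), and it was -0.13 without replicate 1. Rbfox3 showed the same library at the top, with 212, 209.9 and 216 CPM in sham and 232, 157, 154 and 124 CPM in injured control. Its log2 fold change of -0.35 ± 0.21 did not pass (edgeR adjusted p = 0.193), but it was -0.55 without replicate 1 (edgeR adjusted p = 0.047). Uchl1 measured 731, 735 and 689 CPM in sham and 709, 476, 485 and 361 CPM in injured control, and it fell by 0.50 (SE 0.19, edgeR adjusted p = 0.035), with replicate 1 within the sham range.

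On day 35, 7 of 10 members were called lower (15.5% of all genes tested were; 36.8% in either direction) and none higher. The injured libraries lay below sham in 7 of 10 members, as in 18% of all genes, and the exceptions were Mapt, Rbfox3 and Uchl1. These calls rested on few libraries. Without the 4 libraries low in long transcripts, 3 members were called lower (Tubb3 at -0.51, Stmn2 at -0.52 and Uchl1 at -0.56), as were 3.29% of all genes, while Nefl was at -0.36 with an edgeR adjusted p of 0.285. Leaving out injured control replicate 4 alone also left 3 calls (Tubb3, Map2 and Stmn2; 6.9% of all genes lower), and the sham and injured control libraries of day 35 fitted alone gave 1 (Tubb3; 1.87% of all genes lower). With low-Xist libraries only, day 3 keeps 1 sham against 2 injured control libraries, and the lone sham library is assumed to vary like the libraries of the other groups. Then 2 members were called lower on day 3 (Nefl at -1.05 and Nefh at -1.15; 2.35% of all genes lower). On day 35, with 2 libraries in each group, 0 were called in edgeR (0.548% of all genes lower), and all 10 log2 fold changes were negative.

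Whether the difference from sham itself changed between days 3 and 35 was tested as an interaction. In edgeR 0 of 10 members passed (0.362% of all genes did) and DESeq2 called 0. An unadjusted p under 0.05 was reached by 1 member (Mapt, at 0.43 with an unadjusted p of 0.0411) and by 1563 of the 16314 genes tested. The difference in log2 fold change ranged from -0.26 for Map2 to 0.59 for Rbfox3.

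To set the members against other neuronal transcripts, libraries were also scaled on 29 neuronal genes that include no member. Of these, 25 were called lower on day 3 and 18 on day 35 in injured control against sham, with medians of -0.89 and -0.72. On that scale the median log2 fold change of all genes tested was 0.91 on day 3 and 0.84 on day 35, so values below are relative to neuronal transcripts and not to the tissue. Against this reference the neurofilament genes lay at -0.21 (Nefl), -0.02 (Nefm), -0.29 (Nefh) and -0.29 (Ina) on day 3, and 0 of the 4 were called. The edgeR test called 4 members higher (68.7% of all genes were called higher on this scale): Map2 at 0.49 ± 0.16 (adjusted p = 0.00902), Mapt at 0.55 ± 0.24 (adjusted p = 0.0412), Stmn2 at 0.36 ± 0.16 (adjusted p = 0.0429) and Uchl1 at 0.42 ± 0.18 (adjusted p = 0.0431). Rbfox3, at -0.04, lay level with the reference within its error of 0.16.

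On day 35 only Mapt (0.88 ± 0.22, edgeR adjusted p = 0.00261) and Rbfox3 (0.39 ± 0.15, edgeR adjusted p = 0.024) were called against the neuronal reference, both higher, where 65.1% of all genes were called higher. The neurofilament genes ranged there from -0.27 (Ina) to 0.15 (Nefm). With Nkx6.1 on day 3, Tubb3 (1.02), Map2 (0.76), Mapt (1.06), Stmn2 (0.73) and Uchl1 (0.84) were called higher against sham on this scale, as were 84.4% of all genes, and Ina was called lower at -0.42 (edgeR adjusted p = 0.0362), as were 0.674%.

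**Figure D3:**
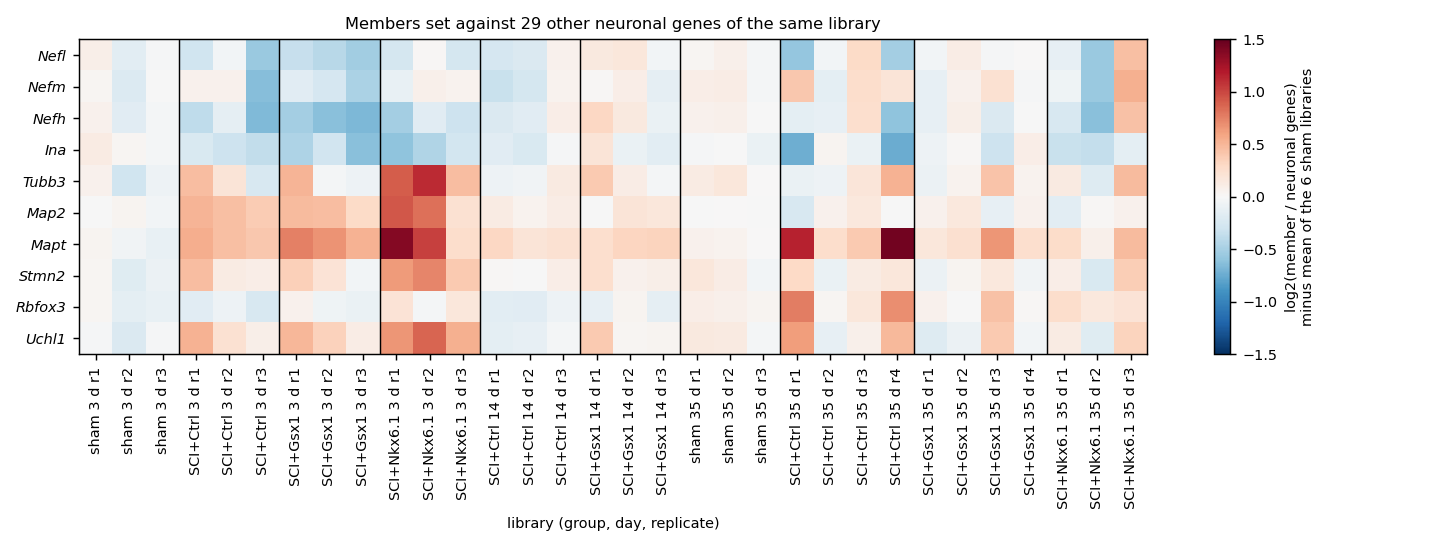
Log2 ratio of each member to 29 other neuronal genes of the same library, minus the mean of the 6 sham libraries, for all 32 libraries in columns (red higher, blue lower, colour scale -1.5 to 1.5). Map2, Mapt and Uchl1 are red in the injured libraries of day 3, and the darkest values of Mapt are in injured control replicate 4 of day 35 and Nkx6.1 replicate 1 of day 3.

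Ratios within a library compare members without any scaling. The ratio of Nefl to Map2 was 3.16, 2.57 and 3.00 in sham on day 3 and 1.69, 2.13 and 1.53 in injured control. The geometric means were 2.90 and 1.77, and the groups did not overlap. An exact two-sided permutation test gave p = 0.10, the smallest that 3 against 3 libraries allow, and adjusted p = 0.233 over the 14 ratios tested. On day 35 the same ratio was 3.03, 3.10 and 2.91 in sham and 2.35, 2.72, 3.22 and 2.09 in injured control, where the groups overlapped.

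The ratio of Mapt to Map2, the axonal against the dendritic microtubule protein, was 0.73, 0.72 and 0.71 in sham on day 35. In injured control it was 0.80 and 0.82 in replicates 2 and 3 but 1.86 and 1.92 in replicates 1 and 4 (exact two-sided permutation p = 0.057, the smallest that 3 against 4 allow; adjusted p = 0.233). Replicates 1 and 4 are the injured control libraries low in long transcripts, and Gsx1 replicate 3, also low in them, stood at 1.20 against 0.75 to 0.79 in the other Gsx1 libraries. Nkx6.1 replicate 3 stood at 0.93, beside 0.95 and 0.73 in its group. Replicates 1 and 4 were also the injured control libraries of that day with high Xist (407 and 676 CPM), while sham replicate 3 and Nkx6.1 replicate 2, with Xist at 520 and 666 CPM, had ratios of 0.71 and 0.73. The longest coding transcripts of Mapt and Map2 have 5253 and 6258 bases, so both are long, and the part of the length trend in this ratio was not tested. With that trend as a covariate, Mapt in injured control against sham was at -0.04.

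**Figure D4:**
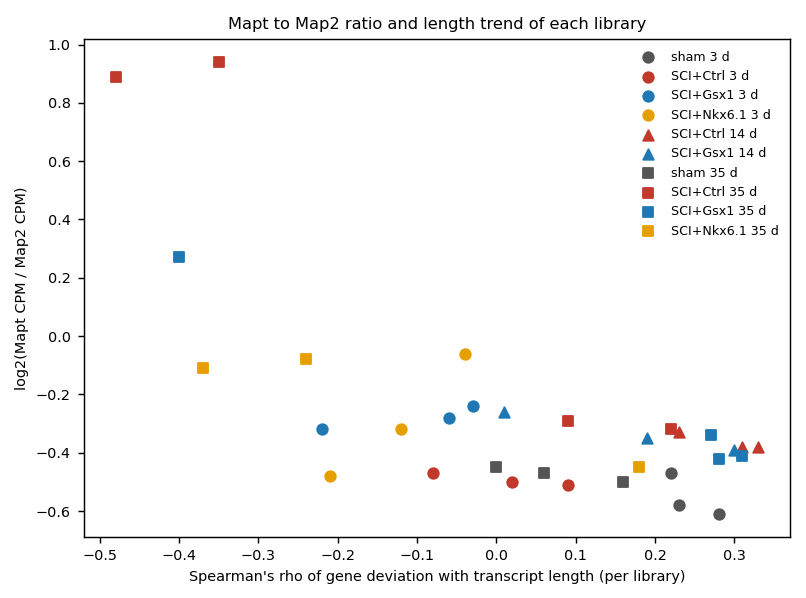
Log2 ratio of Mapt to Map2 (y axis) against the length trend of each library (x axis, Spearman's rho of gene deviation with transcript length), 1 point per library, coloured by treatment with circles for day 3, triangles for day 14 and squares for day 35. Injured control replicates 1 and 4 of day 35 lie at the upper left, with ratios of 1.86 and 1.92 at a rho of -0.48 and -0.35.

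Gsx1 was compared with injured control on 3 days. On day 3 the members' log2 fold changes lay between -0.27 and 0.14, on day 14 between 0.07 and 0.30, and on day 35 between -0.18 and 0.51. In edgeR 0 of 10 members passed at any of the 3 times, as did 0% of all genes tested, and DESeq2 called 0 members at each. At an unadjusted p under 0.05 there were 0, 0 and 2 members on days 3, 14 and 35, and 338, 960 and 3077 of the 16314 genes tested. The values of Nefl with Gsx1 were 808, 1042 and 1082 CPM on day 3, then 2033, 2240.3 and 1739 CPM on day 14, beside 1429.6, 1646 and 1925 CPM in injured control of day 14. On day 14 the Gsx1 libraries lay above injured control in 2 members, as in 7.37% of all genes. These were Mapt (518, 588 and 534 CPM against 503, 516 and 514 CPM) and Uchl1 (643, 537 and 489 CPM against 408, 466 and 477 CPM), with log2 fold changes of 0.10 ± 0.15 and 0.30 ± 0.20 that did not pass in edgeR (adjusted p of 0.999 and 0.979).

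On day 35, Nefl measured 1938, 2124, 1798 and 2016 CPM with Gsx1, where injured control spanned 686 to 2111 CPM. The log2 fold change was 0.43 ± 0.24 (95% interval -0.07 to 0.93, edgeR adjusted p = 0.318). Ina, with 248, 258, 189.8 and 280.2 CPM, had the highest fold change of the members at 0.51 ± 0.26 (95% interval -0.03 to 1.06, edgeR adjusted p = 0.286). Tubb3 (0.31, unadjusted p = 0.0322) and Map2 (0.33, unadjusted p = 0.0499) were the 2 members with an unadjusted p under 0.05. Over all 16314 genes tested, 3077 had one. In all 10 genes the Gsx1 and injured control libraries overlapped on that day; of all genes, 2.89% were lower and 1.48% higher without overlap. Without the 4 libraries low in long transcripts, the 10 log2 fold changes lay between 0.00 and 0.14. Macrophage and microglia markers differed beside these values on day 35, with a summed level of 1754 to 2084 CPM with Gsx1 and 2307 to 5099 CPM in injured control, without overlap. Their part in the members' values was not tested.

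Nkx6.1 against injured control gave 0 of 10 members in edgeR on day 3 (0.337% of all genes were called) and 0 on day 35 (0% of all genes). DESeq2 called 0 on both days, and an unadjusted p under 0.05 was reached by 0 members on day 3 and by 1 on day 35 (Tubb3, at 0.41 with an unadjusted p of 0.0103). Over all 16314 genes tested, 2984 and 2006 reached it on these days. On day 3 the 3 Nkx6.1 libraries differed among themselves: Nefl measured 583, 689.6 and 1229 CPM, and Ina 59.8, 64.3 and 159.6 CPM. Replicate 3 was the highest of the 3 in all members but Mapt. Without it, 5 members were called lower than in injured control (Nefm, Nefh, Ina, Stmn2 and Rbfox3), as were 8.9% of all genes. On day 35 the Nkx6.1 libraries lay above injured control in Tubb3 alone (534, 443 and 530 CPM against 309 to 436 CPM), as in 2.03% of all genes.

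Against sham, the treated groups of day 3 were low as well. With Gsx1, 9 members were called lower (17.4% of all genes were called lower and 37.7% in either direction), all but Mapt. With Nkx6.1, all 10 were called lower (26.4% of all genes lower, 54.3% in either direction), led by Ina at -1.79 and Nefh at -1.65. On day 35 the log2 fold changes against sham lay between -0.50 and -0.10 with Gsx1 and between -0.55 and -0.08 with Nkx6.1. There 0 members were called in edgeR, where 9.8% and 7.2% of all genes were, and DESeq2 called 0 in both. An unadjusted p under 0.05 was reached by 3 and 0 members, and by 4078 and 3420 of the 16314 genes tested. The Gsx1 and Nkx6.1 libraries nonetheless lay below sham in 9 of 10 members each (15.9% and 17.1% of all genes), with Mapt the exception, and the Gsx1 and sham libraries fitted alone gave 9 calls, all lower (8.66% of all genes). These comparisons share the sham libraries with that of injured control.

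Between days 3 and 35, 9 of 10 members had a positive log2 fold change in injured control (Map2 was at -0.20), and all 10 did with Gsx1 and with Nkx6.1. In injured control 2 members were called higher, Mapt (0.57 ± 0.14, edgeR adjusted p = 0.00872) and Rbfox3 (0.80 ± 0.21, edgeR adjusted p = 0.0175), where 11% of all genes were called in either direction and 5.04% higher. Both calls were lost without replicate 1 of day 35, and also without replicate 1 or replicate 3 of day 3, while 4 members were called higher without replicate 4 of day 35 (4.89% of all genes). With Gsx1, 6 members were called higher (20% of all genes in either direction, 7.58% higher): the 4 neurofilament genes at 0.90 to 1.11, Tubb3 at 0.56 and Rbfox3 at 0.74. Without Gsx1 replicate 1 of day 3, 1 member was called higher (2.16% of all genes). With Nkx6.1 all 10 were called higher (42.5% in either direction, 21% higher), from 0.49 for Tubb3 to 1.31 for Nefh, with 6 called without Nkx6.1 replicate 1 of day 3 (14.3% of all genes higher) and 3 with the Nkx6.1 libraries fitted alone (7.97% higher).

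In sham, 0 of 10 members were called between the 2 days in edgeR (0.00613% of all genes were, which is 1 gene), and DESeq2 called 0. An unadjusted p under 0.05 was reached by 0 members and by 1171 of the 16314 genes tested. The day 35 libraries still lay above those of day 3 in 8 of 10 members, as in 12.7% of all genes, with log2 fold changes of -0.01 to 0.26. Map2 and Ina were the exceptions. Whether the Gsx1 difference from injured control changed between days 3 and 35 was also tested. In edgeR 0 of 10 members passed (0% of all genes), and 0 did in DESeq2. An unadjusted p under 0.05 was reached by 0 members and by 1614 of the 16314 genes tested. For the Nkx6.1 difference, 0 of 10 members passed in edgeR (2.3% of all genes) and 0 in DESeq2. There 4 members and 4266 of all genes tested had an unadjusted p under 0.05. The edgeR test gave 8 calls without Nkx6.1 replicate 3 of day 3 (21.9% of all genes). Without injured control replicate 2 of day 35 it gave 2 (14.2% of all genes).

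Ordered by mean level over the 10 groups, Nefl ran from sham on day 35 (2603 CPM) and sham on day 3 (2407 CPM) down to Nkx6.1 on day 3 (834 CPM). The libraries of these sham groups did not overlap with each other, nor those of sham on day 3 with the next group in the order (Gsx1 on day 14). Below that, every group overlapped with its neighbour, and Nkx6.1 on day 35 (up to 2349 CPM) reached into the range of sham on day 3. Nefm and Nefh had the same groups at both ends, at 3240 and 1176 CPM for Nefm and at 1994 and 575 CPM for Nefh. Ina ran from 327 CPM in sham on day 3 to 94.5 CPM with Nkx6.1 on day 3. In all 4 neurofilament genes the 3 lowest groups were the injured groups of day 3, in the order injured control, Gsx1 and Nkx6.1, each overlapping with the next.

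For Tubb3 the lowest group mean was that of Gsx1 on day 3 (318 CPM), and for Mapt the highest was that of injured control on day 35 (659.9 CPM), which replicate 1 carried. Stmn2 ran from 486 CPM in sham on day 35 to 249 CPM with Nkx6.1 on day 3, Map2 from 865 to 480.2 CPM, Rbfox3 from 212 to 82.8 CPM and Uchl1 from 719 to 398 CPM, with the same groups at the ends. For Rbfox3 the only neighbours below the top that did not overlap were injured control on day 14 (121 to 139 CPM) and Gsx1 on day 3 (84.6 to 115 CPM).

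Across the 32 libraries, the gene most like Nefl in log2 CPM was Nefh (Pearson's r = 0.986), followed by the sodium channel subunit gene Scn4b (0.979) and the potassium channel subunit gene Kcnab1 (0.974). Map2 lay closest to Rab39b (0.978) and Rbfox3 to Rtn1 (0.982). Mapt was closest to Ntm (0.949), and Tubb3 had the lowest best match, Reep5 at 0.902. After group means were removed, r was 0.96 between Nefl and Nefh, 0.90 between Stmn2 and Uchl1 and -0.11 between Nefl and Mapt. These values describe libraries that share groups, depth and length trend, and they carry no test.

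Related genes of the cytoskeleton were taken from lists by function and counted by edgeR calls in injured control against sham. These counts stand beside 16% of all genes called lower and 19.5% higher on day 3, and 15.5% lower and 21.3% higher on day 35. Of 12 axonal transport motor genes, 11 were called lower on day 3 and 12 on day 35, among them Kif5c (-0.82 and -0.81), a kinesin heavy chain that carries cargo along axons. Of 8 spectrin and ankyrin genes, which form the membrane skeleton of axons, 6 and 7 were called lower, with Ank3, the organiser of the axon initial segment, at -0.63 and -0.45. Of 17 genes for other microtubule-associated proteins, stathmins and collapsin response mediators, 8 and 8 were called lower and none higher, with medians of -0.49 and -0.43. Of 12 genes for kinases and proteases that act on neurofilaments or tau, 6 and 6 were called lower, among them the Cdk5 activator gene Cdk5r1 (-0.86 and -0.61), and the calpain gene Capn2 was called higher on day 3 (0.44).

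Tubulins other than Tubb3 split by gene. Of 9, 4 were called higher and 2 lower on day 3, and 1 higher and 4 lower on day 35. On day 3, 2 of 9 lower is near the share of all genes. Tubb6 was at 2.58 and 1.12 on the 2 days, Tubb2b at 1.06 on day 3, and Tuba4a at -0.87 and -0.71. Of 7 other intermediate filament genes, 5 were called higher on day 3 and 4 on day 35, and none lower. Vim, the filament of astrocytes, fibroblasts and immune cells, was at 3.96 and 3.76, and Gfap, the astrocyte filament, at 1.73 and 2.08. Of 4 relatives of Rbfox3 and Uchl1, 3 and 4 were called lower, among them Rbfox1 at -0.80 and -0.65. In the comparisons of Gsx1 and Nkx6.1 with injured control, 0 genes of these lists were called in edgeR. This is near the share of all genes, which was 0.337% with Nkx6.1 on day 3 and 0% in the other comparisons.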

How the data were processed

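Spinal cord RNA was sequenced in bulk from 32 samples, placed in 10 groups by their labels. The authors deposited raw read counts per gene symbol, not normalized, in 1 table with a column per library; 0 columns were left without a sample. Tools and builds, per the submitters' processing notes, were HISAT2, SAMtools, HTSeq, DESeq2, mm10 and GRCm38; versions are not stated. For the counting, annotation and strand setting are not stated.

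Counts were tested with edgeR 4.0.16 (R 4.3.3; quasi-likelihood F test, TMM scaling, minimum count 10, minimum total count 15, Benjamini-Hochberg over 16314 genes). All 10 groups entered 1 model with 22 residual and 4.4 prior degrees of freedom. The common BCV was 20.8%. Standard errors are the log2 fold change over the square root of F. Ratios used an exact permutation test. The procedure was tested on simulated counts for injured control against sham on day 3. True log2 changes of 0.5 and -0.5 were called in 24% and 30% of 50 genes each. Changes of 1 and -1 were called in 74% and 82%, and 0.0125% of unchanged genes were called. In the simulation 15958 of 16158 genes were unchanged, while 35.5% of genes were called in the data. The adjustment is stricter with few changed genes, so these rates do not carry over to the data. DESeq2 1.42.0, other scaling, filters, sample sets, a replicate block and leaving out libraries were alternatives. All 10 members are named, with up to 4 genes per related list by smallest p. The members and lists were chosen with earlier results of these data known. Total counts of 10.8 to 19.5 M per library leave spread between libraries, not counting, as the limit.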

Additional observations from a re-analysis of the deposited data

Results flagged for a closer look

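Groups of 4 libraries were examined for a single library far from the others, for the 10 members in injured control and Gsx1 on day 35, which made 20 groups. Map2 in Gsx1 replicate 3 of day 35, at 565 CPM, was the lowest of its group, beside 710, 738 and 713 CPM. Its gap to the nearest library, divided by the range, was above Dixon's limit of 0.829. Chance marks about 1 in 20 such groups, and 1 was marked. The same library is among the 4 that were low in long transcripts, and the part of that trend in this value was not tested.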

How the results depend on the processing

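DESeq2, RLE size factors and the absence of a low-count filter left each count of called members within 1.5 times. Where no share of all genes stands beside a count below, none is given, and the count describes only how calls depend on processing. Same-numbered libraries did not deviate together (median r of 0.02, -0.01 and -0.02 for numbers 1, 2 and 3, beside -0.01 for different numbers), so the replicate numbers were not taken as pairs. With a replicate block, 7 members were called in injured control against sham on day 3 and 6 on day 35, and no count moved by over 1.5 times.

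Scaling on neuronal genes changed the question most. It gave 4 calls in injured control against sham on day 3 and 2 on day 35, all higher (68.7% and 65.1% of all genes were). Nkx6.1 against injured control on day 3 had 1 (Tubb3, higher). Against sham on day 3, Gsx1 had 5 (Nefh and Ina lower, Map2, Mapt and Uchl1 higher). Nkx6.1 had 6 there, with Ina alone lower (84.4% of all genes were higher and 0.674% lower). Between days 3 and 35, injured control had 1 (Rbfox3, higher) and Gsx1 had 2 (Nefh higher, Map2 lower). With Nkx6.1 the 5 calls between days were all lower (Tubb3, Map2, Mapt, Stmn2 and Uchl1). The main fit called all 10 members higher (21% of all genes), so lower here means a smaller rise than in the neuronal reference genes. The change of the Nkx6.1 difference between days had 4, all negative (Tubb3, Mapt, Rbfox3 and Uchl1). Shares of all genes beside the other counts on this scale are not given, so those counts cannot be read as particular to the members. Of 180 signs, 10 for each comparison, 83 turned, and values follow for 6 of the 18 comparisons. Signs turned in injured control against sham on day 3 for Tubb3 (0.31), Map2 (0.49), Mapt (0.55), Stmn2 (0.36) and Uchl1 (0.42), and on day 35 for Nefm (0.15), Tubb3 (0.08), Map2 (0.03), Stmn2 (0.07), Rbfox3 (0.39) and Uchl1 (0.23). They turned in Gsx1 against injured control on day 35 for Nefm (-0.15), Tubb3 (-0.02), Stmn2 (-0.11), Rbfox3 (-0.30) and Uchl1 (-0.26), and in injured control between days for Ina (-0.08), Tubb3 (-0.07), Stmn2 (-0.16) and Uchl1 (-0.05). Between days they also turned with Gsx1 for Tubb3 (-0.07), Map2 (-0.40), Mapt (-0.35), Stmn2 (-0.20) and Uchl1 (-0.33), and with Nkx6.1 for Nefm (-0.05), Tubb3 (-0.77), Map2 (-0.79), Mapt (-0.76), Stmn2 (-0.57) and Uchl1 (-0.67). In the other comparisons, those that turned included 8 of 10 members in Nkx6.1 against injured control on day 3 (all but Ina and Tubb3) and 5 on day 35, 6 and 7 in Gsx1 and 7 and 5 in Nkx6.1 against sham on days 3 and 35, and 9 for the change of the Nkx6.1 difference between days. This scale sets members against neuronal transcripts, which were themselves low after injury.

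With the compared groups alone, calls against sham on day 35 were 1 in injured control (1.87% of all genes lower), 9 in Gsx1 (8.66% lower) and 1 in Nkx6.1. Between days they were 0 in injured control and 3 in Nkx6.1 (7.97% of all genes higher). The cause was not tested. Without the 2 libraries that held both Xist and Ddx3y, 3 members were called in injured control against sham on day 35, and in Gsx1 against injured control Nefm was at -0.03, Rbfox3 at -0.09 and Uchl1 at -0.07. With low-Xist libraries only, calls (on day 3 from a lone sham library, with the spread taken from the other groups) were 2 on day 3 and 0 on day 35 in injured control against sham and 0 between days in injured control. There Mapt was at -0.17 against sham on day 35, Nefl at -0.02, Nefh at -0.05 and Mapt at 0.09 in Gsx1 against injured control, and Map2 at 0.06 between days in injured control.

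Leaving out the libraries low in long transcripts and using the length trend as a covariate were chosen after seeing the data. Without those libraries, 3 members were called in injured control against sham on day 35 (3.29% of all genes lower). With Gsx1, 3 were called against sham on that day, and the share of all genes is not given. Mapt was then at -0.18 in injured control against sham and at 0.00 in Gsx1 against injured control, and Map2 at 0.11 between days in injured control. With the covariate, each count of called members stayed within 1.5 times, and Mapt was at -0.04 in injured control against sham on day 35.

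Leaving out 1 library at a time gave 4 to 7 calls in injured control against sham on day 3. There were 4 without injured control replicate 3 (9.72% of all genes lower). On day 35 the range was 3 to 8, with 3 without injured control replicate 4 (6.9% lower). Nkx6.1 against injured control on day 3 had 0 to 5, with 5 without Nkx6.1 replicate 3 (8.9% lower). The change of the Nkx6.1 difference between days had 0 to 8, with 8 without Nkx6.1 replicate 3 of day 3 (21.9% in either direction). Between days 3 and 35 the ranges were 0 to 4 in injured control, 1 to 6 with Gsx1 and 6 to 10 with Nkx6.1. The fewest with Gsx1 and with Nkx6.1 came without Gsx1 replicate 1 of day 3 (2.16% of all genes higher) and without Nkx6.1 replicate 1 of day 3 (14.3% higher). Mapt ranged from -0.13 to 0.16 in injured control against sham on day 35. In Gsx1 against injured control on day 35 the ranges were -0.03 to 0.29 for Nefm, -0.26 to 0.05 for Mapt, -0.10 to 0.24 for Rbfox3 and -0.08 to 0.28 for Uchl1. In injured control between days they were -0.03 to 0.50 for Ina, 0.00 to 0.26 for Tubb3, -0.01 to 0.30 for Stmn2 and -0.01 to 0.35 for Uchl1. The spread between libraries, not depth, limits these comparisons.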
